A study of Mus musculus with 2 samples.

Results

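Tcf7, Lef1, Bach2, Satb1, Bcl11b, Foxp1, Foxo1 and Myb are 8 genes for transcription factors of T cell development and of resting, long-lived T cells. They were taken by symbol from the 27998 genes in the deposited tables, and all 8 had UMIs in both libraries. The data came from γδ T cells, lymphocytes with a receptor of paired γ and δ chains, of untreated wild type C57BL/6J mice aged 8 weeks. There was 1 library of cells sorted from the liver and 1 library of cells sorted from the thymus, both on CD3e and TCRγ/δ, and only the thymic cells had first been depleted with beads against CD4 and CD8. Each library was made with droplet-based 3′ chemistry, which tags each captured transcript with an identifier of its own, the UMI, so that a UMI stands for a molecule. The level of each factor is described by stage in the thymus and by cell type in the liver.

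TCF-1, the product of Tcf7, and LEF-1 bind the same DNA element and switch on the T cell program in early thymocytes. BCL11B fixes the T cell fate, SATB1 organizes chromatin in thymocytes, and MYB drives gene expression in progenitors and developing thymocytes. FOXP1 and FOXO1, of the forkhead family, keep mature T cells quiescent and sustain genes of recirculation, and BACH2 represses effector genes. Several of these factors are known to be kept in naive and memory T cells and lost in terminal effector cells.

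The identifiers of all 8 genes in the deposited tables are those of GENCODE vM21 on GRCm38, the assembly of the mm10 build named in the submitters' processing notes. Tcf7 (ENSMUSG00000000782) lies at chr11:52252371-52283014 and Lef1 (ENSMUSG00000027985) at chr3:131110471-131224356. Bach2 (ENSMUSG00000040270) lies at chr4:32238804-32586108, Satb1 (ENSMUSG00000023927) at chr17:51736187-51833290 and Bcl11b (ENSMUSG00000048251) at chr12:107910403-108003602. Foxp1 (ENSMUSG00000030067) lies at chr6:98925338-99522721, Foxo1 (ENSMUSG00000044167) at chr3:52268336-52353221 and Myb (ENSMUSG00000019982) at chr10:21124935-21160984. Lef1, Bach2 and Foxo1 are on the plus strand and the others on the minus strand. The deposited counts are summed per gene, so they do not tell exons and untranslated regions apart. Antisense genes that are listed in the deposited tables overlap exons of Tcf7, Lef1, Bach2, Foxo1 and Myb, and whether the counting used strand is not given in the sources used here. The highest of these was Gm43352, opposite Lef1, at 37.9 CPM in the thymus and 3.23 CPM in the liver, and the others were at 1.58 CPM or less, where CPM is the UMIs of a gene scaled to a total of 1000000 UMIs. On the same strand, Gm20696 overlaps exons of Foxp1 (9.48 CPM in the liver and 18.9 CPM in the thymus) and Gm26551 exons of Tcf7 (2.32 and 6.62 CPM), and how shared reads were assigned was not given either.

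Windows at annotated starts are shown for 4 of the genes. Tcf7, Bach2 and Myb were at least 2-fold higher in precursor-like than in both main mature classes of the liver, and Bcl11b was not. The call of Bach2 is not firm. Against Socs2 Cd28-like cells, 1 of these classes, it was 2.02-fold (1.33 to 3.04) higher and fell below 2-fold in several alternatives given below. Lef1 was also higher than in both classes (6.41-fold and 2.46-fold), but its window, which held none of the motifs below, is not shown. Each window shown is the most upstream RefSeq window of the gene on GRCm38.p6, with 250 bases before and 50 bases after the start, written from 5′ to 3′ along the gene. That of Bach2 lies inside the GENCODE span given above, and so not at the start of that span. That of Tcf7 reads as an open frame from an ATG before the annotated start to its end, so it may hold coding rather than promoter sequence. Whether the windows are promoters used in these cells was not tested. The capitals mark short binding motifs of the families to which the factors belong, searched on both strands: CTTTGA for TCF/LEF, GTAAACA for forkhead, CAACTG for MYB and TGTGGT for RUNX, the family of other T-lineage factors.
Tcf7, chr11:52282965-52283264, minus strand: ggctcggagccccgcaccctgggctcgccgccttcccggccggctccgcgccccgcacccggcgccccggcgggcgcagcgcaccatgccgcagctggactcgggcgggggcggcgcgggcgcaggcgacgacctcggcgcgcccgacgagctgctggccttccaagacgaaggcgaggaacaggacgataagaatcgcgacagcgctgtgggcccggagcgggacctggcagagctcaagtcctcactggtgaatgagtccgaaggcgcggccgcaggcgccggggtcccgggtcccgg
Bach2, chr4:32417185-32417484, plus strand: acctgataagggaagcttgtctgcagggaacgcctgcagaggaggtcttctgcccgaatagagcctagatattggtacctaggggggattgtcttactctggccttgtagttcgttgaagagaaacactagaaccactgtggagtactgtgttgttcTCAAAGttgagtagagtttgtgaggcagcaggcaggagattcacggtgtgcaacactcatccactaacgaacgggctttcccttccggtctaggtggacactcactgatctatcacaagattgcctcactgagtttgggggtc
Bcl11b, chr12:108003365-108003664, minus strand: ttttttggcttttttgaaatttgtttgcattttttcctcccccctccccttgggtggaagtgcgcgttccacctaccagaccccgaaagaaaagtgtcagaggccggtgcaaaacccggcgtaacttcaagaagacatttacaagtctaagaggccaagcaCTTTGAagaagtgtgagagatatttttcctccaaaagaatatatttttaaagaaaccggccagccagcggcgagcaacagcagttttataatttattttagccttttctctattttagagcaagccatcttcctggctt
Myb, chr10:21160935-21161234, minus strand: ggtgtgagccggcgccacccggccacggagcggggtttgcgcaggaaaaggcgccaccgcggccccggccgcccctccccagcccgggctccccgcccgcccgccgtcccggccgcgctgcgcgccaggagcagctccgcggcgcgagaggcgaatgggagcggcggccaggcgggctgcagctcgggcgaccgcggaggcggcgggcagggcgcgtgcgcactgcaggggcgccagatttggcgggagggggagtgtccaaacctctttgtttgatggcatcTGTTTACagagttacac
The windows of Bach2 and Bcl11b each held 1 TCF/LEF motif, that of Myb held 1 forkhead motif after the start, and that of Tcf7 held none. Over all 18 windows that RefSeq gives for the 8 genes, 4 held the TCF/LEF, 2 the forkhead, 3 the MYB and 0 the RUNX motif. Among all 32851 windows, 16% (5257) held the TCF/LEF, 3.65% the forkhead, 13.7% the MYB and 16.8% the RUNX motif. A match of letters is a description and no test of binding.

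The liver library held 8658 barcodes and 25040963 UMIs, and the thymus library 4541 barcodes and 17371662 UMIs. Cells with 800 to 4000 genes and at most 6% mitochondrial UMIs were kept, 8075 in the liver (median 2741 UMIs) and 4351 in the thymus (median 3271 UMIs). The libraries shared 60 barcodes, and leaving these out moved none of the 48 ratios between groups given here (8 genes in 6 comparisons) beyond its interval. Joint clustering without the 8 genes among the variable genes gave 11 clusters, named from marker genes that include none of the 8, and 15 combinations of class and library held at least 50 cells. Summed Cd3e, Cd3d, Cd3g and Cd247 were between 2711 and 5029.8 CPM in 14 of them and at 909 CPM in the myeloid-like hepatic cells, which also held 12969 CPM of Lyz2. The 105 myeloid-like cells were used as the background against which shares of cells with a UMI were read.

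In the thymus, 1008 Dntt Cpa3-like immature cells were led by Tox2, Igfbp4 and Etv5. A second immature class of 1425 cells, led by Tnfsf11, Slc35d1 and Hes1, scored alike for both sets of immature markers and is called Hes1 Tnfsf11 immature. Cycling cells numbered 541, Il17a-like cells 164 and transitional cells 1023, the last led by S1pr1 and Cd200 but also by 3 hemoglobin genes. In the liver, 2818 Tyrobp Gzmb-like, 2809 Socs2 Cd28-like, 1050 precursor-like, 795 Il17a-like and 274 Klra6 Klrg1-like cells were found, with smaller classes of transitional (87), interferon (76) and cycling (57) cells. The cycling hepatic cells also held 639 CPM of summed B cell markers (33.6 CPM over all kept hepatic cells). Their summed myeloid markers were at 3168 CPM (1030 CPM over all kept hepatic cells). The precursor-like cluster, led by Ly6c2, Gm8369 and Dapl1, also held 177 thymic cells. When the thymus was clustered alone, 164 of these fell into a cluster led by Xcl1, Ly6c2, Gzmb and Ccl5, so the name precursor-like is not used for the thymic cells as a cell type. The hepatic cells of the cluster held such genes too, with Ccl5 at 11827 CPM (3755 CPM in the thymic cells) and Xcl1 at 850 CPM (986 CPM). Their summed Cd24a, Sox4 and Rag1 were at 106 CPM. These were at 541 CPM in transitional hepatic, 811 CPM in transitional thymic and 4.93 CPM in Socs2 Cd28-like cells. For the hepatic cells the name thus stands for marker genes, and their stage was not tested.

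For a level, a gene's UMIs were added up across every cell in a class and expressed as CPM, with exact Poisson 95% intervals in parentheses. Ratios carry exact conditional binomial 95% intervals. All intervals cover counting error only, and with 1 library per tissue no difference has a replicate check and no test was run. A lower level of a factor in a whole library cannot be told apart from fewer cells of the types that hold it.

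Over all kept cells, the 8 factors were lower in the liver than in the thymus. Myb stood apart with 4.59 CPM (3.78 to 5.53) in the liver against 153 CPM (148 to 159) in the thymus, 33.4-fold lower (27.6 to 40.8). Tcf7 was at 68.4 CPM (65.1 to 71.8) against 501 CPM (491 to 512), 7.33-fold lower (6.95 to 7.73). At the other end, Foxo1 was at 50.7 CPM (47.9 to 53.6) in hepatic and 95.8 CPM (91.2 to 101) in thymic cells, 1.89-fold lower (1.75 to 2.04). Thus 7 of the 8 factors were at least 2-fold lower in hepatic cells, where 16.9% of the 10869 genes with at least 50 UMIs were, and 0 were at least 2-fold higher, against 12.1% of genes. The median log2 ratio of the 8, computed with 10 CPM added, was -1.39, against -0.11 over all genes tested. Between Myb and Foxo1 lay Satb1 (3.94-fold lower), Lef1 (3.24-fold), Bach2 (3.21-fold), Foxp1 (2.39-fold) and Bcl11b (2.11-fold). With the mean of the cells' own CPM, Foxo1 also passed 2-fold, at a ratio of 0.477.

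The genes around these factors were taken from 5 lists. Of the relatives of the 8, 4 of 7 tested were at least 2-fold lower in hepatic cells and 0 higher, with Tcf7l2, another TCF gene, at 2.69 CPM (2.08 to 3.43) against 40.4 CPM (37.5 to 43.6). Other T-lineage factors were lower in 5 of 11 and higher in 0, among them Gata3 at 92.2 CPM (88.4 to 96.1) against 275 CPM (267 to 283). Partners and regulators of TCF and FOXO factors had 1 higher and 3 lower of 13. Genes of resting and recirculating T cells had 2 higher and 5 lower of 8, with Klf2, a factor of quiescence, at 1481 CPM (1466 to 1496) against 539 CPM (529 to 551). Effector factors had 4 higher and 1 lower of 9, with Tbx21, for T-bet, at 75.6 CPM (72.2 to 79.1) against 1.29 CPM (0.808 to 1.95). The median log2 ratios of these lists were -0.37, -0.53, -0.21, -0.88 and 0.27 in this order, against -0.11 over all genes.

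**Figure D1:**
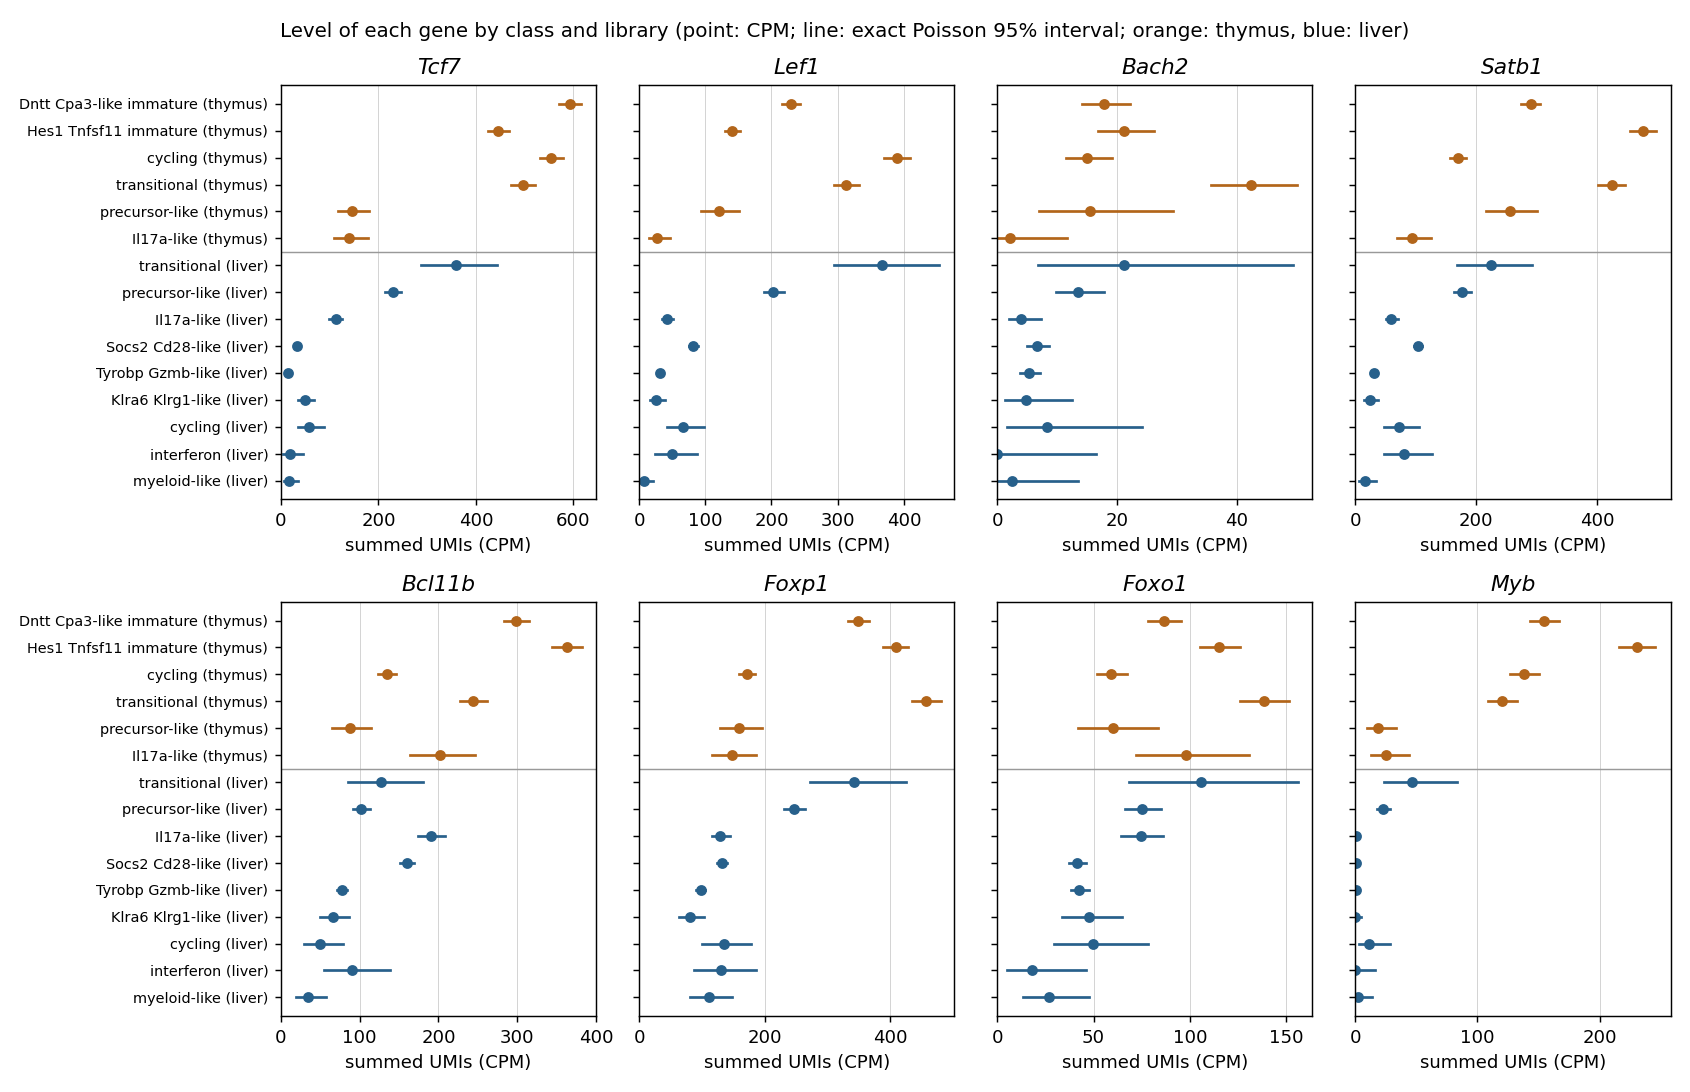
Level of each of the 8 genes in the 15 combinations of class and library with at least 50 cells, in CPM of summed UMIs on a linear axis that differs between genes. Points are levels, lines exact Poisson 95% intervals, orange thymus and blue liver. For Tcf7, thymic immature, cycling and transitional cells lie between 446 and 593 CPM, and hepatic cells reach from 14.8 CPM in Tyrobp Gzmb-like to 359 CPM in transitional cells.

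Tcf7, which encodes TCF-1, was highest in the Dntt Cpa3-like immature class and lowest in Tyrobp Gzmb-like hepatic cells. Among thymic classes it was at 593 CPM (571 to 616) in Dntt Cpa3-like immature, 555 CPM (532 to 578) in cycling, 497 CPM (473 to 521) in transitional and 446 CPM (425 to 467) in Hes1 Tnfsf11 immature cells. In hepatic cells it reached 359 CPM (287 to 444) in the transitional and 229.8 CPM (214 to 246) in the precursor-like class. Mature classes held less. Il17a-like cells were at 139.9 CPM (108 to 178) in the thymus and 112 CPM (99.4 to 126) in the liver, and the thymic cells of the precursor-like cluster at 146 CPM (116 to 180.3). The other mature hepatic classes were lower, with 49.95 CPM (35.8 to 67.8) in Klra6 Klrg1-like, 33.8 CPM (29.9 to 38.0) in Socs2 Cd28-like and 14.8 CPM (12.3 to 17.7) in Tyrobp Gzmb-like cells. Of the 14 pairs of neighbours in this order, 7 differed beyond their counting error. The thymic cells of the precursor-like cluster and both Il17a-like groups did not, nor did interferon (17.9 CPM), myeloid-like (17.0 CPM) and Tyrobp Gzmb-like cells in the last places of the order.

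Lef1, the paralog of Tcf7, followed another order. Its highest level was in cycling thymic cells at 389 CPM (371 to 409), 1.70-fold (1.57 to 1.84) above Dntt Cpa3-like immature cells at 229 CPM (216 to 244), whereas Tcf7 was 0.935-fold (0.884 to 0.989) of the immature level in the same cells. Hes1 Tnfsf11 immature cells held the least Lef1 of the immature classes, at 141 CPM (129 to 153), and the transitional cells 2.22-fold more than these (2.01 to 2.47), at 313 CPM (294 to 332). Transitional hepatic cells were at 368 CPM (294 to 454), within counting error of the cycling thymic cells. Precursor-like hepatic cells followed at 203 CPM (188 to 218).

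In mature hepatic cells the paralogs diverged. Il17a-like cells held 3.32-fold (2.80 to 3.93) the Tcf7 of Socs2 Cd28-like cells but 0.522-fold (0.422 to 0.641) their Lef1. Lef1 was at 42.9 CPM (35.2 to 51.9) in Il17a-like and 82.3 CPM (76.1 to 88.7) in Socs2 Cd28-like cells, and at 31.6 CPM (27.8 to 35.8) in Tyrobp Gzmb-like cells. Klra6 Klrg1-like cells held 3.37-fold (2.31 to 4.85) the Tcf7 of Tyrobp Gzmb-like cells, while their ratio for Lef1, 0.809 (0.492 to 1.26), had an interval that included 1. In Il17a-like thymic cells Lef1 was at 27.1 CPM (14.5 to 46.4), 0.0868-fold (0.0461 to 0.149) of the transitional thymic level, against 0.282-fold (0.217 to 0.360) for Tcf7.

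**Figure D2:**
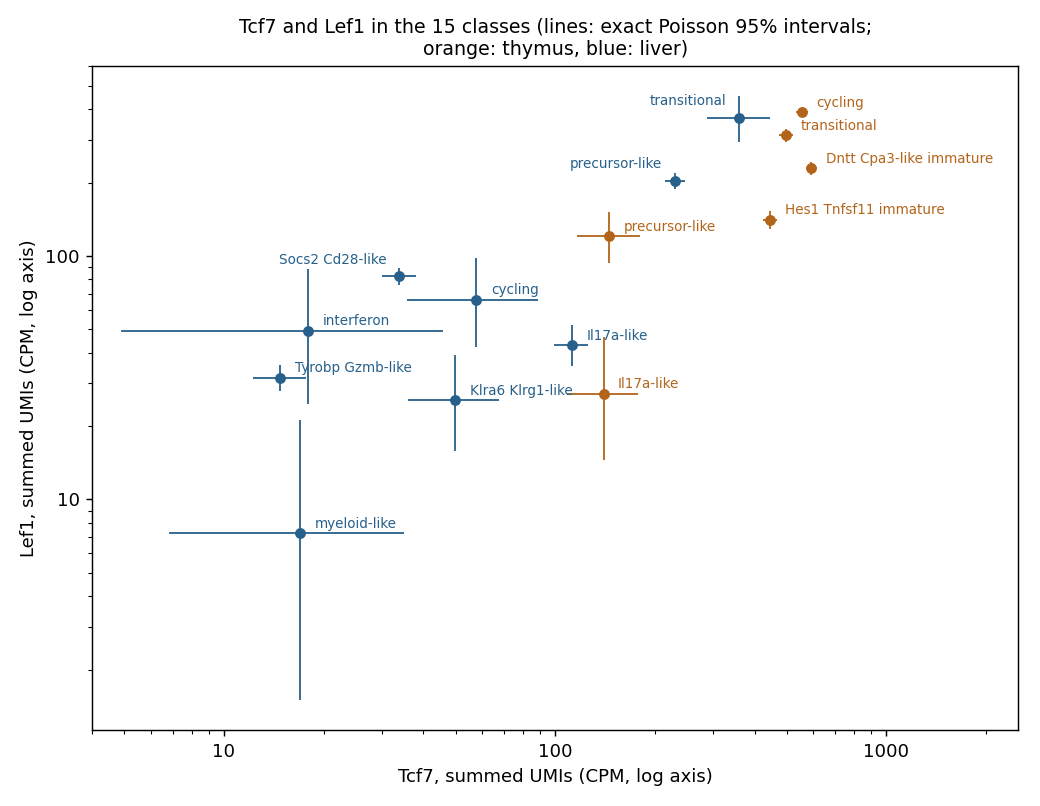
Tcf7 (horizontal) and Lef1 (vertical) in CPM on log axes, 1 point for each of the 15 combinations of class and library, with exact Poisson 95% intervals, orange thymus and blue liver. Il17a-like cells of either tissue lie to the lower right of Socs2 Cd28-like cells, which held 33.8 CPM of Tcf7 and 82.3 CPM of Lef1.

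After each cell was thinned to 1500 UMIs, 29.9% (exact binomial interval 27.1% to 32.8%) of precursor-like hepatic cells held a Tcf7 UMI and 25.6% (23.0% to 28.4%) a Lef1 UMI. Without thinning the shares were 47.9% and 42.1%. In the myeloid-like cells, whose own RNA should lack both genes but which also held T cell RNA, they were 2.86% (0.593% to 8.12%) and 1.90% (0.232% to 6.71%), or 5.71% and 2.86% without thinning. Median depths were 3049 UMIs in precursor-like and 3069 in myeloid-like cells, and thinning left out 0 cells of either, and between 1 and 4 cells of the other classes named for such shares where any were shallower. Both UMIs were found in 103 precursor-like cells, 9.81% (8.08% to 11.8%), where the product of the shares is 7.66%. Among Dntt Cpa3-like immature cells the joint share was 15.7% (13.5% to 18.1%), with a product of 16.8%. In Tyrobp Gzmb-like cells, 1.92% (1.44% to 2.49%) held a Tcf7 UMI, or 3.90% without thinning, which was not above the myeloid-like share. Since the myeloid-like cells also held T cell RNA and their interval reached 8.12%, this background cannot decide the question. The Tyrobp Gzmb-like share is therefore read neither as expression of Tcf7 nor as its absence.

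Bcl11b, the zinc finger gene that keeps T cells from other fates, ranged 10.7-fold from its highest to its lowest class. Its levels were 363 CPM (345 to 382) in Hes1 Tnfsf11 immature, 299 CPM (283 to 315) in Dntt Cpa3-like immature and 244 CPM (228 to 262) in transitional thymic cells. Il17a-like cells held 203 CPM (164 to 247) in the thymus and 191 CPM (174 to 209) in the liver, and Socs2 Cd28-like cells 160.3 CPM (152 to 169). These mature classes stood above the precursor-like hepatic cells, at 102 CPM (91.6 to 113). Bcl11b was 1.87-fold (1.63 to 2.15) higher in Il17a-like than in precursor-like hepatic cells, and it was the only factor of the 8 with an interval above 1 in that pair. Tyrobp Gzmb-like cells held 77.5 CPM (71.5 to 83.9) and myeloid-like cells 34.0 CPM (18.6 to 57.0). After thinning, 26.2% (23.1% to 29.4%) of Il17a-like and 13.4% (11.4% to 15.6%) of precursor-like hepatic cells held a Bcl11b UMI (43.9% and 26.4% without thinning), against 3.81% (1.05% to 9.47%) of myeloid-like cells, 7.62% without thinning.

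Satb1, a chromatin organizer of thymocytes, was highest in Hes1 Tnfsf11 immature cells at 476 CPM (454 to 497), followed by transitional thymic cells at 424 CPM (402 to 447) and Dntt Cpa3-like immature cells at 291 CPM (275 to 307). The thymic cells of the precursor-like cluster kept 256 CPM (216 to 300.1), above the 176 CPM (163 to 191) of the hepatic ones, and Satb1 was the only factor with an interval below 1 in that pair (0.690-fold, 0.576 to 0.831). In mature hepatic classes it separated Socs2 Cd28-like cells, at 104 CPM (96.8 to 111), from Tyrobp Gzmb-like cells, at 31.5 CPM (27.7 to 35.6), by 3.29-fold (2.86 to 3.81). Klra6 Klrg1-like cells, at 24.4 CPM (14.9 to 37.6), lay within counting error of the latter and of the 17.0 CPM (6.83 to 35.0) of myeloid-like cells.

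Over all 15 combinations of class and library, the forkhead genes had the narrowest ranges of the 8. These were 5.602-fold between the highest and the lowest class for Foxp1 and 7.70-fold for Foxo1, whose lowest class rested on 4 UMIs. The range of Bcl11b ended in the myeloid-like cells, and its next lowest class, cycling hepatic cells, was at 49.6 CPM (29.4 to 78.4). These cycling cells also held B cell and myeloid RNA, as given above, and the part of that RNA in this level was not tested. Foxp1 peaked in transitional thymic cells at 457 CPM (434 to 481) and fell to 81.6 CPM (63.3 to 104) in Klra6 Klrg1-like cells. In between stood Hes1 Tnfsf11 immature cells at 409 CPM (389 to 429), transitional hepatic cells at 342 CPM (272 to 425), precursor-like hepatic cells at 247 CPM (231 to 264) and the mature hepatic classes between 81.6 and 132 CPM. Myeloid-like cells held 112 CPM (81.7 to 149), within the range of these mature classes. With each library clustered alone, the transitional name fell on a smaller set of thymic cells, led by Tnfrsf9 and Eomes. These were at 261 CPM for Foxp1, 267 CPM for Satb1 and 106 CPM for Bcl11b, each over 1.5 times lower than in the joint class. Foxp1 was then no longer higher there than in the immature cells of that clustering. Foxo1, which sustains Il7r and Klf2 in resting T cells, also peaked in transitional thymic cells, at 138 CPM (126 to 152). It was at 75.4 CPM (66.6 to 85.0) in precursor-like and 74.4 CPM (64.1 to 85.8) in Il17a-like hepatic cells, whose ratio, 0.987 (0.814 to 1.19), included 1. Socs2 Cd28-like cells, at 41.4 CPM (37.1 to 46.1), and Tyrobp Gzmb-like cells, at 42.7 CPM (38.2 to 47.4), held less. Neighbours in the order of Foxo1 differed beyond counting error in 1 of 14 pairs.

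Bach2, the repressor of effector genes, was highest in the transitional class. It was at 42.4 CPM (35.6 to 50.1) in transitional thymic cells, 2.01-fold (1.52 to 2.66) above Hes1 Tnfsf11 immature cells at 21.2 CPM (16.9 to 26.2) and 2.39-fold (1.80 to 3.18) above Dntt Cpa3-like immature cells at 17.8 CPM (14.1 to 22.1). After thinning, 5.59% (4.26% to 7.19%) of transitional thymic cells held a Bach2 UMI, 11.7% without thinning, against 0 of 105 myeloid-like cells, which allows a share of up to 2.86% (3 cells), or 0.952% without thinning. Precursor-like hepatic cells held 13.4 CPM (9.86 to 17.8). All other hepatic classes were at 8.26 CPM or less except the transitional cells, with 5 UMIs (21.1 CPM, 6.86 to 49.3).

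Myb, a driver of progenitor cells, lay in the liver mostly in precursor-like cells. In the thymus it was at 230.4 CPM (216 to 246) in Hes1 Tnfsf11 immature, 155 CPM (143 to 166) in Dntt Cpa3-like immature, 138 CPM (127 to 150.1) in cycling and 119.9 CPM (108 to 132) in transitional cells. Hepatic cells as a whole held 111 Myb UMIs, of which 80 lay in precursor-like cells, 72.1% (62.8% to 80.2%), although these cells held 14.5% of all hepatic UMIs. Transitional hepatic cells, with 0.979% of all UMIs, held another 11. Their level was 46.5 CPM (23.2 to 83.2), and its ratio to the precursor-like level, 2.035 (0.977 to 3.84), had an interval that included 1. In the large mature classes the counts were 8 UMIs in Tyrobp Gzmb-like, 3 in Socs2 Cd28-like, 2 in Il17a-like and 0 in Klra6 Klrg1-like cells, the last allowing up to 3.66 CPM, the level of 3 UMIs over the class. Against that limit, Myb was at least 63.0-fold higher in Hes1 Tnfsf11 immature thymic cells. The precursor-like level was 22.8 CPM (18.1 to 28.4), and 3.43% (2.41% to 4.72%) of these cells held a Myb UMI after thinning (6.38% without), against 0 of 105 myeloid-like cells (0.952% without thinning). The thymic share of Hes1 Tnfsf11 immature cells was 29.0% (26.6% to 31.4%), 46.2% without thinning.

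**Figure D3:**
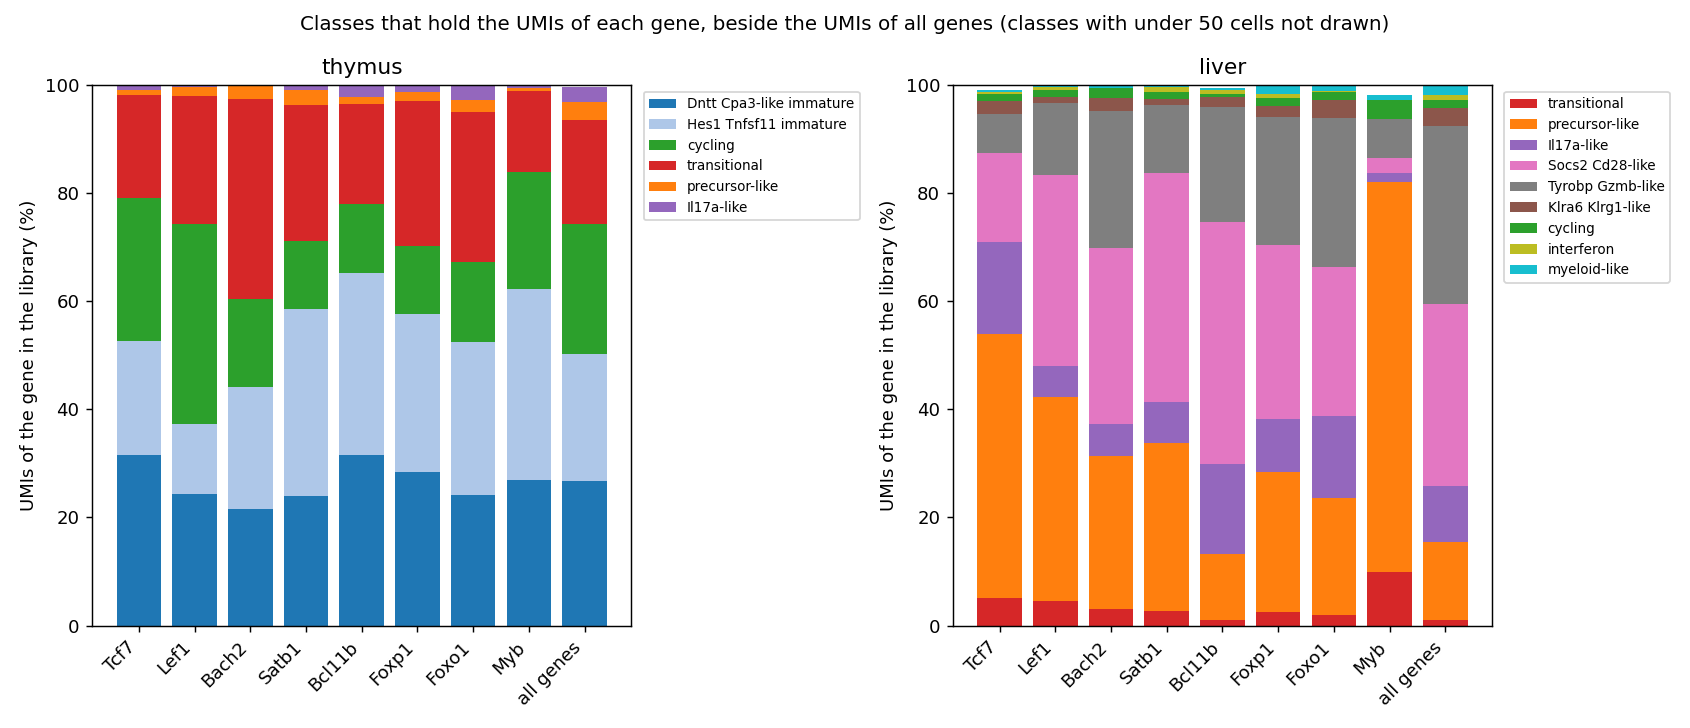
Share of each gene's UMIs in a library (percent, vertical) that lay in each class, for thymus (left) and liver (right), with the share of all UMIs as the last bar. In the liver, precursor-like cells held 72.1% of Myb and 48.7% of Tcf7 UMIs but 12.3% of Bcl11b UMIs, where they held 14.5% of all UMIs.

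Transitional thymic cells were named by markers that include S1pr1 and Ccr7, and their order after immature cells was not tested here. Both immature classes together were compared with the transitional class. Bach2 alone was at least 2-fold lower in immature cells, at a ratio of 0.456 (0.362 to 0.576), where 3.69% of 8753 genes were, and 0 factors were at least 2-fold higher, against 3.55% of genes. Without the cells that held a hemoglobin UMI, the Bach2 ratio was 0.507, so the 2-fold call was lost. Lef1 (0.601, 0.555 to 0.650), Foxo1 (0.724, 0.645 to 0.813), Foxp1 (0.824, 0.775 to 0.877) and Satb1 (0.889, 0.835 to 0.947) were lower in immature cells by less than 2-fold. Myb (1.59, 1.42 to 1.78) and Bcl11b (1.35, 1.24 to 1.46) were higher, and the interval of Tcf7 (1.06, 0.997 to 1.12) included 1. Taken apart, the immature classes lay on opposite sides of 1 for Satb1 and Tcf7 and on the same side for the other factors. Satb1 was at 1.121 (1.045 to 1.202) in Hes1 Tnfsf11 and 0.685 (0.635 to 0.739) in Dntt Cpa3-like immature cells. For Tcf7 these ratios to transitional cells were 0.8975 (0.839 to 0.960) and 1.195 (1.123 to 1.271). When each library was clustered alone, the immature class held 1090 and the transitional class 292 cells, against 2433 and 1023, and 7 of the 8 ratios left their intervals. The transitional name then fell on cells led by Tnfrsf9 and Eomes, while a cluster led by hemoglobin genes, Ccr7 and S1pr1 stayed unnamed. Another unnamed cluster scored highest for immature markers. The ratios of this clustering are thus not of the same sets of cells. Those of Bcl11b, Foxp1 and Satb1 were then 2.95, 1.36 and 1.13, the last 2 on the other side of 1. Those of Tcf7, Myb, Lef1 and Bach2 were 1.44, 1.33, 0.661 and 0.346.

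Of 8 genes of resting and recirculating T cells known to depend on these factors, 5 were at least 2-fold lower in immature than in transitional cells. The receptor gene Ccr7 was at 37.1 CPM (33.1 to 41.4) against 203 CPM (188 to 219), and S1pr1, the egress receptor, at 95.5 CPM (89.0 to 102) against 367 CPM (347 to 389), but both are among the markers that name transitional cells. Il7r, for the interleukin-7 receptor, was at 31.5 CPM (27.8 to 35.5) against 105 CPM (94.1 to 117) and is no such marker. Their median log2 ratio was -1.26, against -0.01 over all genes. Among other T-lineage factors, 1 of 11 was at least 2-fold higher in immature cells, Gata3, at 377 CPM (364 to 390.4) against 149 CPM (136 to 163). Of 9 effector factors, 6 were tested, of which 1 was at least 2-fold higher and 3 were lower, among them Eomes, with 0.350 CPM (0.0721 to 1.02) against 23.8 CPM (18.8 to 29.7). Of 5 relatives of the 8 factors that were tested, Tcf7l2 (2.19-fold, 1.75 to 2.76) and Bach1 (2.15-fold, 1.70 to 2.75) were higher in immature cells, so Bach1 and Bach2 had ratios on opposite sides of 1.

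The cycling thymic cells split the factors. Against Dntt Cpa3-like immature cells, Lef1 was higher, Tcf7 and Myb (0.894, 0.799 to 1.00) were close to the immature level, and Bcl11b (0.450, 0.407 to 0.497), Foxp1 (0.491, 0.448 to 0.537), Satb1 (0.584, 0.532 to 0.641) and Foxo1 (0.684, 0.580 to 0.804) were lower. The median depth was 7050 UMIs in cycling and 4359.5 UMIs in Dntt Cpa3-like immature cells. The part of depth in these ratios was not tested.

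Transitional thymic cells were then set against precursor-like hepatic cells. Of the 8 factors, 5 were at least 2-fold higher in transitional thymic cells, where 15.6% of 7463 genes were, and 0 were at least 2-fold lower, against 4.65% of genes. These were Myb (5.25-fold, 4.12 to 6.76), Bach2 (3.16-fold, 2.26 to 4.50), Satb1 (2.41-fold, 2.19 to 2.65), Bcl11b (2.40-fold, 2.11 to 2.72) and Tcf7 (2.16-fold, 1.99 to 2.35). Lef1 had the smallest ratio, 1.54 (1.40 to 1.70), and the median log2 ratio was 1.12, against 0.28 over all genes. With cells thinned to 1500 UMIs the ratio of Tcf7 was 1.81, and with the mean of the cells' own CPM 1.94, both below 2-fold. Tissue and class differ together here and cannot be told apart. Of the recirculation genes, S1pr1 was 2.69-fold (2.41 to 2.99) higher in transitional thymic cells, while Klf2, the factor that switches on S1pr1, was at 1015 CPM against 2580.0 CPM, a ratio of 0.394 (0.378 to 0.410), and both are naming markers. Tbx21, the type-1 master regulator, was at 0.610 CPM (0.0739 to 2.20) in transitional thymic and 42.3 CPM (35.7 to 49.6) in precursor-like hepatic cells.

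The transitional cluster also held 87 hepatic cells, which differed from its thymic cells in other genes and formed no transitional class when the liver was clustered alone. The chemokine gene Ccl5 was at 4006 CPM (3755 to 4269.8) in the hepatic and 451 CPM (428 to 474) in the thymic cells, and the homing receptor gene Ccr7 at 59.2 CPM (32.3 to 99.3) against 203 CPM (188 to 219). Against the thymic transitional cells, Myb (0.388, 0.192 to 0.702), Bcl11b (0.519, 0.348 to 0.747), Satb1 (0.528, 0.393 to 0.695), Tcf7 (0.723, 0.575 to 0.900) and Foxp1 (0.749, 0.591 to 0.937) had intervals below 1. Those of Lef1 (1.18, 0.934 to 1.47), Foxo1 (0.765, 0.490 to 1.14) and Bach2 (0.498, 0.159 to 1.19) included 1. Sox4, a factor of immature γδ thymocytes, was at 380.4 CPM (306 to 468) in the hepatic and 599 CPM (573 to 626) in the thymic transitional cells.

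Within the liver, the precursor-like class was compared with the 2 largest mature classes. Against Tyrobp Gzmb-like cells, which carry the cytotoxic genes, 6 of the 8 factors were at least 2-fold higher, where 3.47% of 8369 genes were, and 0 were at least 2-fold lower, against 8.26% of genes. Tcf7 was 15.5-fold (12.8 to 19.0) higher, Lef1 6.41-fold (5.55 to 7.43), Satb1 5.603-fold (4.83 to 6.51), Bach2 2.55-fold (1.64 to 3.96) and Foxp1 2.52-fold (2.28 to 2.78). Myb was 22.8-fold (11.01 to 54.5) higher on 80 against 8 UMIs. Foxo1 (1.77-fold, 1.499 to 2.08) and Bcl11b (1.32-fold, 1.15 to 1.5) stayed under 2-fold. The median log2 ratio of the 8 was 1.41, against -0.14 over all genes. With cells thinned to 1500 UMIs the ratio of Bach2 was 1.93 and that of Foxo1 2.10, on the other side of 2-fold. The level of Tcf7 in Tyrobp Gzmb-like cells was not told apart from that of myeloid-like cells, so its ratio rests on a level near the background. The coreceptor genes also differed, and only the thymic cells had been depleted of CD4 and CD8 cells. Cd8b1, for the β chain of CD8, was at 50.3 CPM (43.1 to 58.2) in precursor-like, 1.76 CPM (0.960 to 2.95) in Tyrobp Gzmb-like and 4.56 CPM (3.21 to 6.29) in Socs2 Cd28-like cells. Cd8a was at 46.8 CPM (39.9 to 54.6) in precursor-like, 401 CPM (387 to 415) in Tyrobp Gzmb-like and 106 CPM (98.6 to 113) in Socs2 Cd28-like cells, and Cd4 had 1 UMI in precursor-like cells. The part of cells with Cd8b1 in the ratios of the factors and of the recirculation genes was not tested.

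Against Socs2 Cd28-like cells, 4 of the 8 factors were at least 2-fold higher in precursor-like cells, where 2.40% of 8391 genes were, and 0 were at least 2-fold lower, against 6.69% of genes. Tcf7 was 6.80-fold (5.92 to 7.83) and Lef1 2.46-fold (2.21 to 2.74) higher, Bach2 stood at the limit with 2.02-fold (1.33 to 3.04), and Myb was 61.7-fold (20.4 to 306) higher on 80 against 3 UMIs. Bcl11b went the other way, at a ratio of 0.636 (0.564 to 0.715). Satb1 (1.70-fold), Foxp1 (1.87-fold) and Foxo1 (1.82-fold) were higher by less than 2-fold, with intervals above 1. The ratio of Bach2 fell below 2-fold with cells thinned to 1500 UMIs (1.55), without the cells that held a hemoglobin UMI (1.98), at resolution 0.4 (1.99), with 20 principal components (1.85), with the members kept among the variable genes (1.87), and with at most 10% mitochondrial (1.89) or 50% ribosomal-protein UMIs (1.99), so its call is not firm. Ribosomal-protein and mitochondrial genes took 37.1% of the UMIs of precursor-like, 27.5% of Socs2 Cd28-like and 22.6% of Tyrobp Gzmb-like cells. Scaled without these genes, every ratio of a gene against Socs2 Cd28-like cells rises by 0.21 and against Tyrobp Gzmb-like cells by 0.30 on the log2 scale, which puts Foxp1 at 2.16 and Foxo1 at 2.10 against Socs2 Cd28-like and Foxo1 at 2.18 against Tyrobp Gzmb-like cells.

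**Figure D4:**
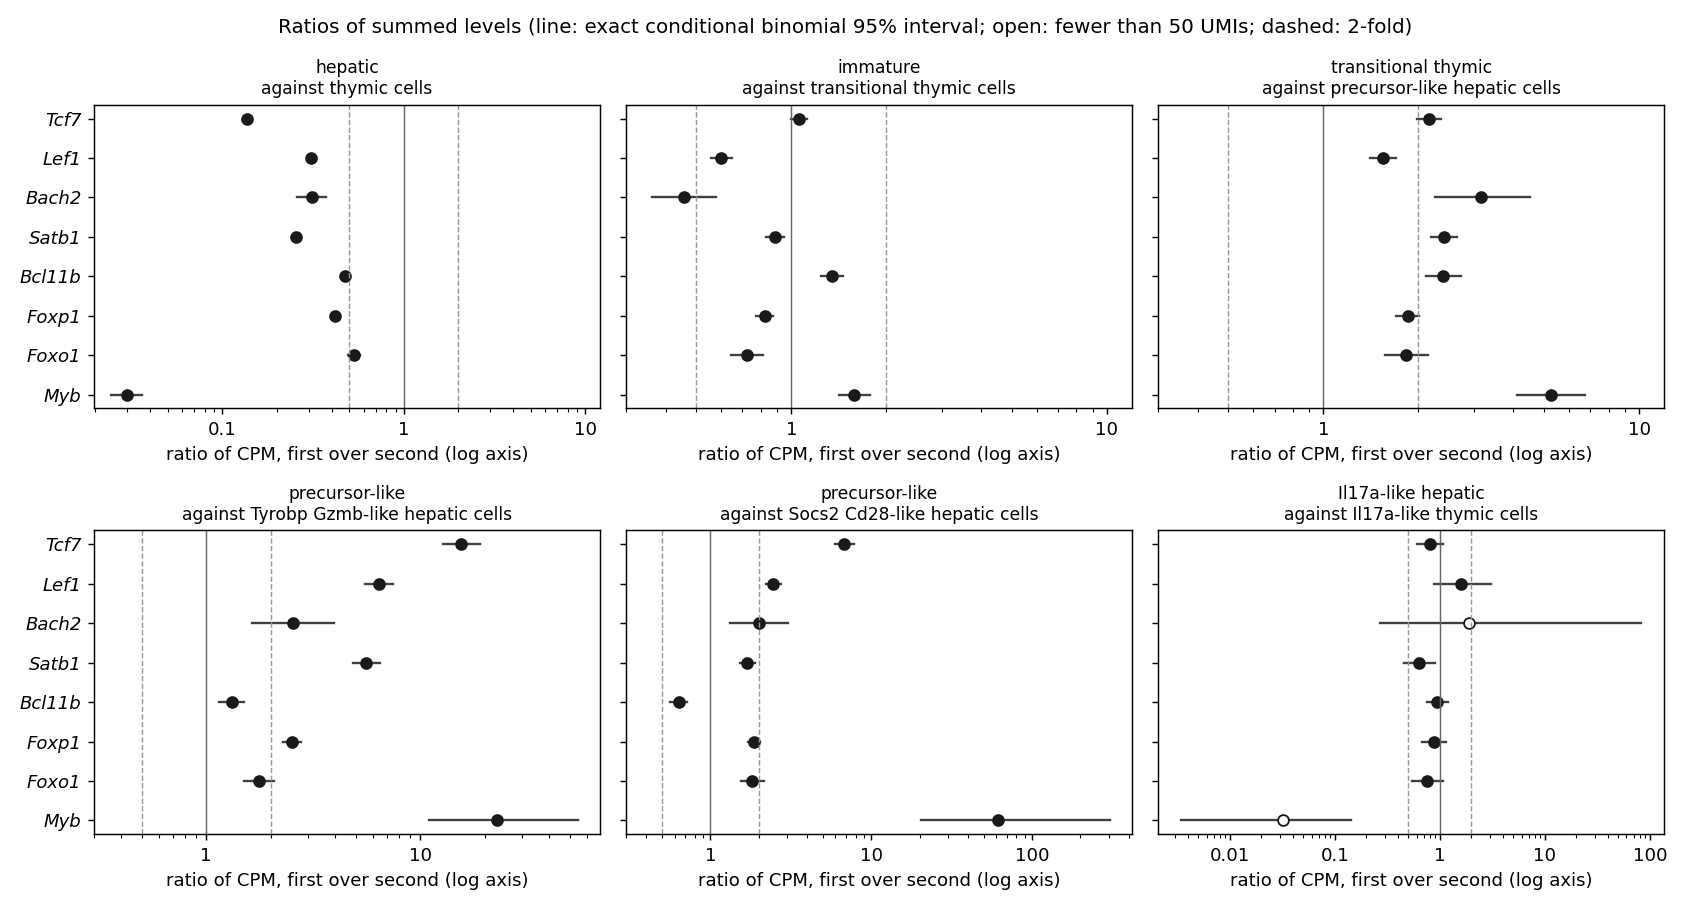
Ratio of CPM between the groups of each of the 6 comparisons for the 8 genes, on log axes that differ between panels. Lines are exact conditional binomial 95% intervals, open points have fewer than 50 UMIs, and dashed lines mark 2-fold. In the panels of precursor-like hepatic cells Tcf7 (15.5 and 6.80) and Myb (22.8 and 61.7) lie far to the right and Bcl11b (1.32 and 0.636) close to 1.

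Genes of resting and recirculating T cells were mostly higher in precursor-like cells, with 6 of 8 at least 2-fold higher in precursor-like than in Tyrobp Gzmb-like cells and 5 of 8 than in Socs2 Cd28-like cells. Il7r was at 196 CPM (182 to 212) against 10.2 CPM (8.07 to 12.6) in Tyrobp Gzmb-like cells, and Slamf6, a marker of self-renewing T cells, at 67.4 CPM (59.1 to 76.6) against 13.4 CPM (11.04 to 16.2) in Socs2 Cd28-like cells. Their median log2 ratios were 3.01 and 1.39. Ccr7, S1pr1 and Klf2, which count among the higher genes in both comparisons, are also markers used to name classes. Partners and regulators of TCF and FOXO factors held 3 of 11 tested genes at least 2-fold higher than in Tyrobp Gzmb-like cells and 2 of 11 than in Socs2 Cd28-like cells. Pik3ip1, an inhibitor of PI3 kinase and thereby upstream of FOXO1, was 2.61-fold (2.22 to 3.06) and 2.11-fold (1.81 to 2.45) higher, and Bcl9l, a β-catenin partner, 4.25-fold (2.83 to 6.48) and 2.57-fold (1.81 to 3.66). Of 11 other T-lineage factors only Id3 passed 2-fold, at 2.25-fold (1.94 to 2.62) and 6.32-fold (5.15 to 7.79). Of 6 tested effector factors, 1 was at least 2-fold higher and 2 lower than in Tyrobp Gzmb-like cells, and 1 was higher and 4 lower than in Socs2 Cd28-like cells. Bhlhe40 was at 190.4 CPM (176 to 205) in precursor-like against 522 CPM (506 to 538) in Tyrobp Gzmb-like cells, and Eomes, an effector and memory factor, was the higher one with 28.0 CPM (22.7 to 34.1) against 4.14 CPM (2.85 to 5.81).

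Il17a-like cells of the joint clustering were found in both tissues and were compared between them. With the thymus clustered alone, no cluster took this name. A cluster led by Ly6a, Serpinb1a, Cxcr6 and Il17a stayed unnamed, with an Il17a-like score of 3.61 second to 3.63 for another list. Other genes differed between the hepatic and thymic cells. Ccl5 was at 2170 against 20.9 CPM, Xcl1 at 311 against 25.1 CPM and Cd24a at 2.39 against 52.2 CPM. Of the 6 factors with at least 50 UMIs, 0 were at least 2-fold higher in hepatic cells, where 6.55% of 5238 genes were, and 0 were at least 2-fold lower, against 2.20% of genes. The intervals of Tcf7 (0.802, 0.612 to 1.06), Lef1 (1.58, 0.887 to 3.07), Bcl11b (0.943, 0.756 to 1.19), Foxp1 (0.872, 0.673 to 1.14) and Foxo1 (0.758, 0.548 to 1.07) included 1, and that of Satb1 (0.635, 0.452 to 0.907) lay below 1. Such intervals do not show that the levels were alike, since they leave room for ratios between 0.548 and 1.19 for these factors other than Lef1 and Satb1. Lef1 rested on 13 UMIs in the thymus, and without the cells that held a hemoglobin UMI its ratio was 2.01. Myb, under the limit of 50 UMIs, had 2 UMIs in 795 hepatic and 12 in 164 thymic cells, a ratio of 0.0318 (0.00345 to 0.143).

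The number of factors found per cell was counted after thinning to 1500 UMIs. Hes1 Tnfsf11 immature cells held UMIs of at least 3 of the 8 genes in 47.9% (45.3% to 50.5%) of cells, transitional thymic cells in 46.2% (43.1% to 49.3%) and Dntt Cpa3-like immature cells in 42.3% (39.2% to 45.4%). The order of these classes depended on depth, since without thinning the shares were 80.8%, 81.8% and 91.5%, and at 1000 UMIs 26.6%, 28.2% and 20.3%. In cycling thymic cells the share was 25.7% (22.1% to 29.6%). The liver had 27.4% (18.2% to 38.2%) among transitional and 17.0% (14.7% to 19.4%) among precursor-like cells, the latter at 45.9% without thinning and 8.57% at 1000 UMIs. Mature hepatic classes lay lower, with 5.03% (3.62% to 6.79%) in Il17a-like, 2.95% (2.36% to 3.65%) in Socs2 Cd28-like and 0.710% (0.434% to 1.09%) in Tyrobp Gzmb-like cells, and 1.90% (0.232% to 6.71%) in myeloid-like cells. The thymic cells of the precursor-like cluster, at 6.21% (3.14% to 10.8%), lay beside Il17a-like thymic cells, at 6.71% (3.40% to 11.7%). None of the 8 was found in 65.2% of Tyrobp Gzmb-like cells, 25.5% of precursor-like hepatic cells and 5.49% of Hes1 Tnfsf11 immature cells.

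**Figure D5:**
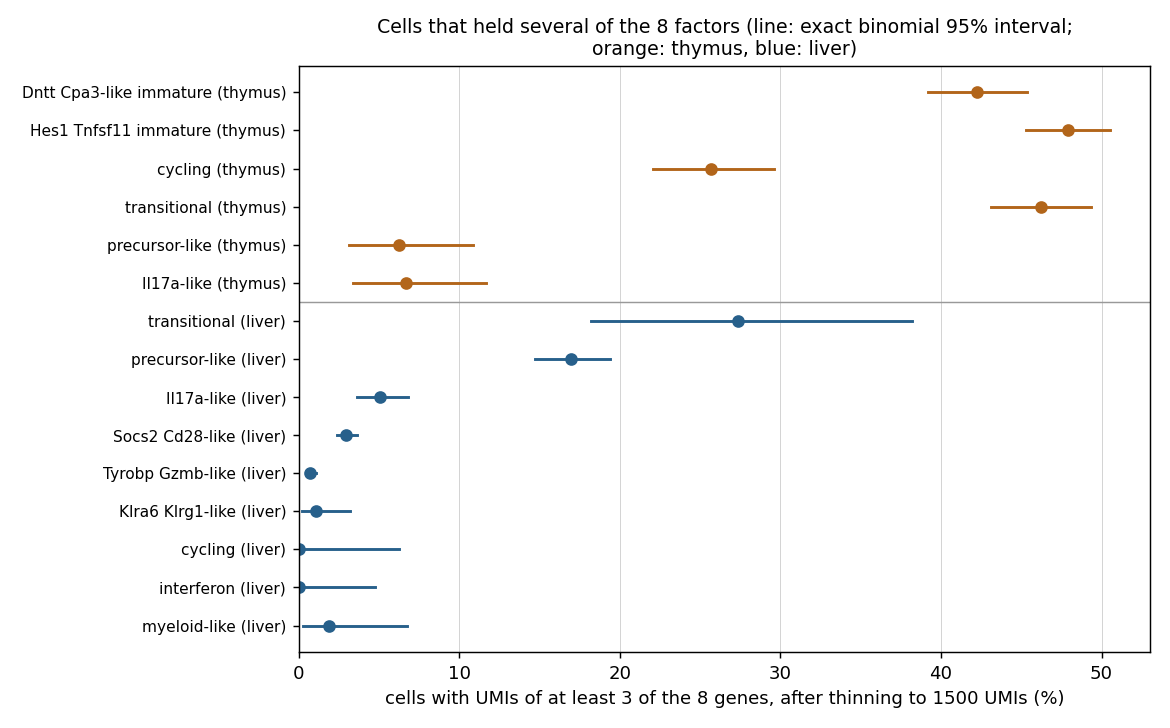
Share of cells (percent, horizontal) with UMIs of at least 3 of the 8 genes after thinning to 1500 UMIs, by class and library, with exact binomial 95% intervals, orange thymus and blue liver. Immature and transitional thymic cells lie between 42.3% and 47.9%, precursor-like hepatic cells at 17.0% and the large mature hepatic classes at 5.03% or less. Shares and the order among thymic classes depend on the depth chosen.

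Across the 15 combinations of class and library, the pattern of each factor was compared with those of 4415 genes by Pearson's r of log2 values with 10 CPM added. The points share 2 libraries and their depth, so r is a description. Myb was most like Sox4 (r = 0.98), Igfbp4 (0.97) and Cd24a (0.96), of which Sox4 and Cd24a are known marks of immature γδ thymocytes. Lef1 was most like Tcf3, the gene of the E protein E2A (0.92), Satb1 and Foxp1 both had Pik3ip1 among their nearest (0.93 and 0.94), and Bcl11b was most like Ldb1 (0.96). Tcf7 was most like Gm10020 (0.95) and Ythdf2 (0.94), Foxo1 most like March7 (0.95) and Bach2 most like Ift80 (0.91). Among the 8 themselves, Tcf7 and Myb had the highest r (0.91), Satb1 and Foxp1 the next (0.90), and Bach2 and Bcl11b the lowest (0.50).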

How the data were processed

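The deposited files hold UMI counts per gene and cell, 1 matrix per tissue, which the authors made with Cell Ranger. The submitters' processing notes name mm10 and Seurat 3.0, and the annotation used for counting is not given in the sources used here. From these counts, cells with 800 to 4000 genes and at most 6% mitochondrial UMIs were kept, normalized and clustered jointly in Seurat 5.3.0 (R 4.3.3) with 2000 variable genes (1995 after leaving out the members), 30 principal components and resolution 0.6. These filters on genes and mitochondrial UMIs are those the study states, but they left more cells than the study gives, so the kept cells are not the same set. The rule that names clusters from marker lists was written after the clusters were seen. The members and all lists were chosen with earlier results of these data known. Genes named beside the 8 were, per list and comparison, the 4 with the largest absolute log2 ratio, and the 3 most alike genes. Genes entered a comparison when the groups together held 50 UMIs or more. Scrublet (scanpy 1.11.5) marked 4 hepatic and 1 thymic cells and was taken as not having worked, so doublets were kept. The study's filter on ribosomal UMIs was tried as an alternative, and 2 stray lines in the thymus matrix were ignored. Sums, intervals and thinning used Python 3.11.15, numpy 2.4.6, scipy 1.17.1 and pandas 2.3.3, figures matplotlib 3.10.9. The ratio script was tested on simulated data. In all, 14 alternatives were planned and 3 were added after seeing the data. Some genes of the lists count in their totals but are not reported here by name.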

Additional observations from a re-analysis of the deposited data

How the results depend on the processing

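No paired analysis was possible because there is 1 library per tissue. Among the recomputed ratios, 665 stayed within the interval of the reported ratio and 55 did not. No ratio past 2-fold changed its side of 1, whereas under 2-fold those of Foxp1 and Satb1 between immature and transitional cells did so with each library clustered alone, and those of Bcl11b (to 1.03 with the mean of the cells' own CPM) and Bach2 (10 against 1 UMIs, to 0.963 with at most 50% ribosomal-protein UMIs) between Il17a-like cells. Of the recomputed counts of factors past 2-fold, 177 stayed within 1.5 times and 3 did not. Between immature and transitional thymic cells, 1 factor (Bcl11b) was at least 2-fold higher with each library clustered alone, and 0 were at least 2-fold lower without the cells that held a hemoglobin UMI. Between Il17a-like cells, 1 factor (Lef1) was at least 2-fold higher in the liver without those cells. With each library clustered alone, 4 comparisons had no value, and the immature and transitional names of the thymus did not fall on the same sets of cells. The alternatives without hemoglobin-holding cells, without shared barcodes and with the joint names carried to separate clusterings were chosen after seeing the data. Depth limits Bach2 and hepatic Myb most, since several classes held under 10 of their UMIs.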
